A study of Mus musculus with 6 samples.

Results

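A group of 9 genes that control survival and death of a cell, of 21000 protein-coding genes, was followed in peak lists of p65, a DNA-binding subunit of the transcription factor NF-κB, from mouse epidermal cells. The genes were Bcl2, Bcl2l1, Mcl1, Bcl2l11, Cflar, Xiap, Casp8, Gadd45b and Ier3. They were chosen with earlier results of these data known, so that counts set beside those of all genes are descriptions. A peak was assigned to one of them when its midpoint lay nearer to a RefSeq start site of that gene than to any other start site on mm10, and peaks within 50 kb of a start site were taken as well. The assigned peaks numbered 17 of 8525 in cells of adult mice, 13 of 4169 in cells of aged mice given control IgG, and 14 of 6014 in cells of aged mice given antibodies against IL-17A and IL-17F.

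The cells came from C57bl/6J mice, whose ages the labels give only as Adult, Aged and Aged+. Adult mice received no treatment. The aged mice labelled Aged/Control IgG, here aged control (aged/IgG control in the plots), received control IgG for 12 weeks. Those labelled Aged/Anti-IL-17A/F, here aged treated (anti-IL-17 in the plots), received antibodies that neutralise these cytokines for as long. The authors merged the reads of 4 mice per condition and reduced the pools to an equal number of reads before peak calling, so that there was 1 list per condition, no spread between mice, and no test between conditions. Differences below are descriptions of these 3 lists and have no replicate check. The labels name the cells only as epidermal cells, and peak lists hold no expression by which the cell type could be checked.

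One mismatch concerns the lists themselves. All 8525 peaks of the list deposited for adult carry names that begin with "Treated", the prefix also used in the aged treated list, whereas the aged control list uses "Control". The part of the study's annotated adult list that was read gives the same positions under the same names, but it was made from the same list and does not settle the matter. The assignment in the labels was kept. If the lists of adult and aged treated had been exchanged, every statement on one of them would hold for the other, and the values of aged control would not change.

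NF-κB is held in the cytoplasm until signals such as TNF or IL-17 release it, and it is best known in epithelia for switching on inflammatory genes together with genes that keep the stimulated cell alive. Cell death by the mitochondrial route is restrained by the prosurvival proteins BCL-2, BCL-XL (from Bcl2l1) and MCL-1, which are opposed by BH3-only proteins such as BIM (from Bcl2l11). Death receptors act through caspase-8, which the caspase-like protein c-FLIP (from Cflar) holds in check, while XIAP blocks the caspases that execute the programme. Gadd45b and Ier3 are early response genes whose products limit stress-induced death in many cells.

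The peaks of these genes held 11 matches to the NF-κB consensus decamer, and 9 of them are shown because they lie around the start sites or in the strongest site of the group. Each line gives the plus strand of mm10, 5′ to 3′, read from the RefSeq assembly GRCm38.p6, with the match in capitals. The match of Gadd45b that lies in the 5′ UTR is given with shorter flanks.
Ier3 promoter, chr17:35821596-35821655: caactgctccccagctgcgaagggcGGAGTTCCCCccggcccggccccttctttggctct
Gadd45b far upstream, chr10:80928847-80928906: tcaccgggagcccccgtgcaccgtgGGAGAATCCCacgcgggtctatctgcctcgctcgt
Gadd45b upstream, chr10:80929632-80929691: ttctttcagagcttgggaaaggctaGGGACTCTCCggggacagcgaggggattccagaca
Gadd45b 5′ UTR, chr10:80930165-80930194: ttcttgggaaGGGAAGTCCCaccgcctccg
Gadd45b intron, chr10:80930616-80930675: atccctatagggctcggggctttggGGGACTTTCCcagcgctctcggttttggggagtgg
Bcl2l11 second start site, chr2:128127243-128127302: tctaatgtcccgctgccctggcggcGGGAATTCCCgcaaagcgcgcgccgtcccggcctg
Bcl2l1 inner start site, chr2:152830925-152830984: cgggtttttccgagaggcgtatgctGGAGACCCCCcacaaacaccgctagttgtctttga
Mcl1 downstream, chr3:95672886-95672945: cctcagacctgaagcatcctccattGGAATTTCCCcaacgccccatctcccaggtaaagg
Mcl1 downstream, chr3:95673143-95673202: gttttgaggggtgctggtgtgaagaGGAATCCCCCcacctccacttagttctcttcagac

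p65 was found at Bcl2l1, Mcl1, Bcl2l11, Gadd45b and Ier3 in all 3 conditions, and at Casp8 in adult and aged treated. Bcl2, Cflar and Xiap had no assigned peak in any list. Among peaks of −log10 q of at least 10, Bcl2l1 had none in any list and Bcl2l11 had one in adult only. With a minimum of 5, the peak of Bcl2l11 in aged control was already lost. Thus 6 of the 9 genes had a peak in adult, where 23.1% of all protein-coding genes had one. The count was 5 of 9 in aged control, with a background of 12.9%, and 6 of 9 in aged treated, with a background of 17.4%. When only the strongest 4169 peaks of each list were kept by fold enrichment, so that the lists were of equal length, the counts were 4, 5 and 2. The assigned peaks then numbered 8, 13 and 6, so that aged control had the most by both counts. Its list lost no peaks by this, since it was the shortest. Shares of all protein-coding genes at equal length are not given here, so these counts have no background.

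The 44 peaks fell at 19 sites, of which 10 were occupied in all 3 lists, 3 in a pair of lists and 6 in 1 list. They lay close to promoters in part, with 7 peaks in adult, 4 in aged control and 5 in aged treated within 1 kb of the start site, beside 36.9%, 33.1% and 33.7% of all peaks. The others lay farther upstream or downstream, up to 58028 bp from the start site at Casp8. The strongest sites of Mcl1 and Gadd45b were not at their promoters but several kb beyond them.

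**Figure D1:**
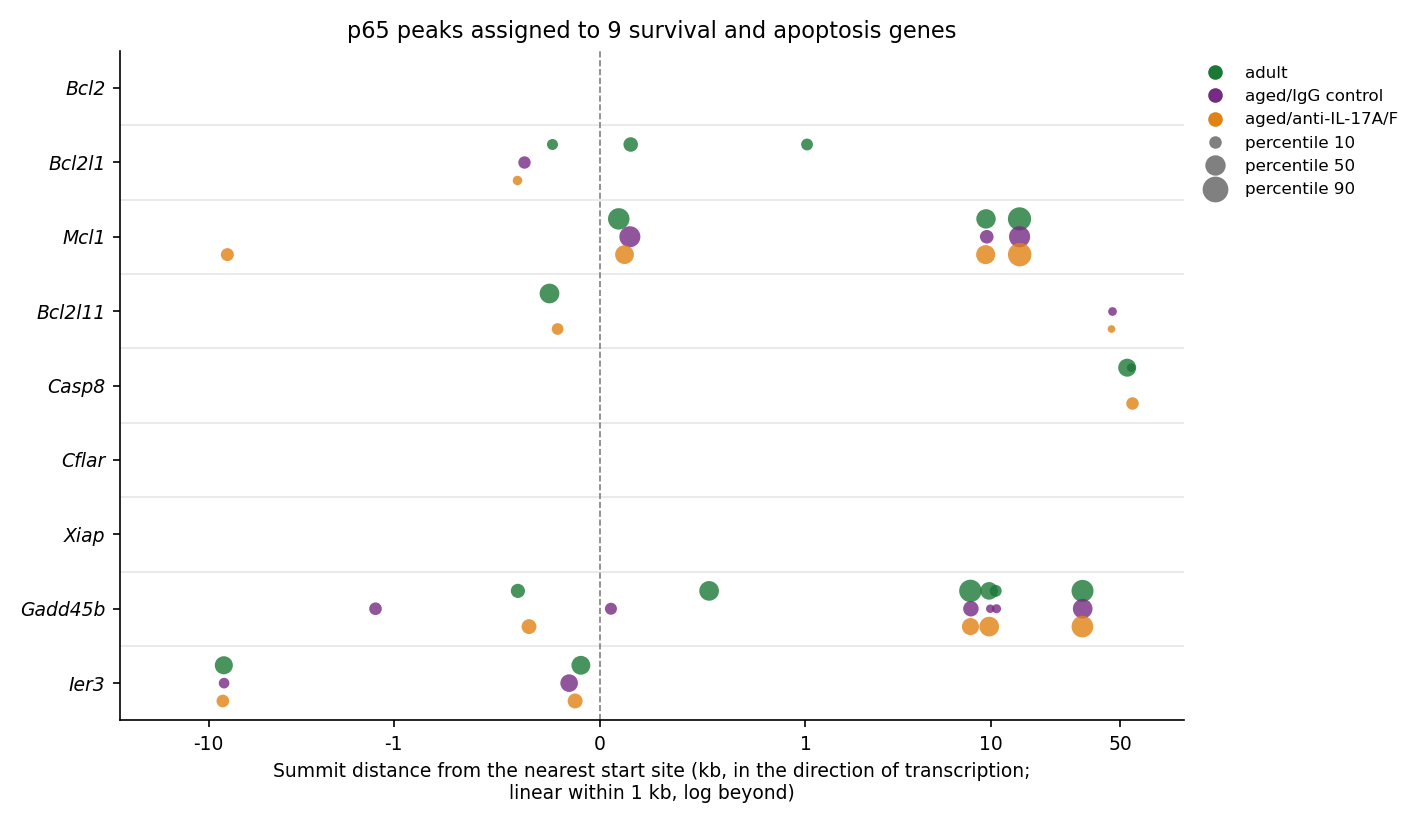
Distance of each peak summit from the nearest start site of its gene, in kb in the direction of transcription, on an axis that is linear within 1 kb and logarithmic beyond. Each point is 1 peak of adult, aged control or aged treated, and its area grows with the percentile of fold enrichment in its list. Both Ier3 sites and 3 Mcl1 sites have points in all conditions, the Gadd45b points near the start site are placed differently in each, and the rows of Bcl2, Cflar and Xiap are empty.

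These were peaks of moderate or low strength. Strength is given as fold enrichment over the local background, and as its percentile, the share of peaks in the same list with an equal or lower value. The median percentile of the assigned peaks was 48.9 in adult, 19.1 in aged control and 30.1 in aged treated. Above the median of their list were 8 of 17 peaks in adult, 3 of 13 in aged control and 5 of 14 in aged treated. None of the 44 peaks was in the strongest decile of its list, and the highest percentile was 88.5.

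Among the prosurvival genes, Mcl1, whose short-lived product is needed by many cell types, had the strongest peak of the 9 genes in each list. Mcl1 lies on the plus strand of chromosome 3, from 95658721 to 95663179. Its strongest site, 14.4 kb downstream of the start and beyond the end of the gene, had a fold enrichment of 6.34 in adult, 4.69 in aged control and 6.72 in aged treated. These values were at percentiles 86.2, 69.9 and 88.5, so that the site ranked 1179 of 8525, 1254 of 4169 and 692 of 6014. The aged control peak was the lowest of the 3 by either measure. Both Mcl1 sequences shown above are in this site, between 112 and 145 bp from the summits.

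The start site of Mcl1 was also occupied in all conditions. The peak there extended from 95658463 to 95659525 in adult, from 95658426 to 95659166 in aged control and from 95658589 to 95659177 in aged treated. Its fold enrichment was 4.67, 4.65 and 3.80, at percentiles 72.5, 69.2 and 53.6. Here adult and aged control were nearly level and aged treated was lower, unlike at the downstream site. No NF-κB decamer was found in any of the 3 start-site peaks.

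Another Mcl1 site, 9.4 kb downstream, had fold enrichments of 3.85 in adult, 3.14 in aged control and 3.87 in aged treated, at percentiles 57.6, 23.6 and 55.4. It held no NF-κB decamer, but all 3 peaks held TGANTCA, the motif of the AP-1 family, within 100 bp of the summit in adult and aged treated and farther from it in aged control. A weak peak 7.9 kb upstream of Mcl1 was present only in aged treated, with a fold enrichment of 2.94 at percentile 20.7. Mcl1 therefore had 3 peaks in adult, 3 in aged control and 4 in aged treated. With predicted transcripts added to the RefSeq annotation, the counts at Mcl1 were 1, 1 and 2, since other start sites then lay nearer to its downstream peaks.

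Bcl2l1, the gene of BCL-XL, is transcribed from the minus strand of chromosome 2 (152758732 to 152831728) and has 3 start sites. Its peaks were weak in every condition, and with lists of equal length by fold enrichment none was left in adult or aged treated. One site, at the inner start site at 152830717, was shared. Its fold enrichment was 2.69 in adult, 3.01 in aged control and 2.57 in aged treated, at percentiles 12.3, 18.0 and 6.77. This was the 1 shared site at which aged control had a higher percentile than adult. The decamer shown above was 9 bp from the adult summit, and 129 and 161 bp from the summits of aged control and aged treated.

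Adult had a pair of further Bcl2l1 peaks. One covered the outer start site, from 152831471 to 152831783, with a fold enrichment of 3.06 at percentile 28.2. The other lay in an intron, from 152827255 to 152827560, with a fold enrichment of 2.77 at percentile 15.7. No aged list had a peak that overlapped either. The peak at the outer start site lay 156 bp from the aged control peak and 239 bp from the aged treated peak, so that the lists differed here by little distance.

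Bcl2, the founding member of the family, had no assigned peak. One adult peak lay within the 50 kb window, 45440 bp upstream of its start site, but 12 bp from the start site of Kdsr, a gene of sphingolipid synthesis. This peak had a fold enrichment of 2.38, at percentile 3.52. The nearest peaks in aged control and aged treated were 82222 and 82237 bp away and were assigned to Vps4b.

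Bcl2l11, the gene of the pro-apoptotic protein BIM, lies on the plus strand of chromosome 2, from 128126038 to 128162547. p65 was called at its second start site, at 128127575, in adult and in aged treated. The adult peak extended from 128127064 to 128127968, with a fold enrichment of 3.95, a −log10 q of 21.0 and a percentile of 59.8. The aged treated peak extended from 128127173 to 128127533, with a fold enrichment of 2.81, a −log10 q of 8.60 and a percentile of 15.3. Both peaks held the decamer shown above, which reads the same on both strands, with its centre 54 and 98 bp from their summits, so that the match in aged treated reached beyond 100 bp.

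Aged control had no peak at this start site. Among all adult peaks in the same decile of strength, 63.0% had no overlapping aged control peak either, so that absence was common at this strength. The adult peak, with rank 3432, was strong enough to remain among the strongest 4169 peaks of its list. The 1 peak that aged control had near Bcl2l11 lay 45 kb downstream of the start and beyond the end of the gene. Its fold enrichment was 2.56, at percentile 4.27, beside 2.23 and percentile 1.13 in aged treated. These were among the weakest peaks of their lists, and both were assigned to other start sites when predicted transcripts were added.

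Casp8, which starts death-receptor signalling and also restrains necroptosis in the epidermis, lies on the plus strand of chromosome 1, from 58795374 to 58847503. Its assigned peaks were all intergenic, beyond the end of the gene. The stronger adult peak, from 58856939 to 58857278, had a fold enrichment of 3.54 at percentile 48.2, and held an NF-κB decamer and AP-1 motifs. It overlapped no peak of either aged list. Among all adult peaks in its decile of strength, 70.7% were absent from aged control and 50.1% from aged treated.

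A second adult peak at Casp8, from 58859712 to 58860092, had a fold enrichment of 2.40 at percentile 4.12. The aged treated peak, from 58860380 to 58860679, lay 287 bp away from it, with a fold enrichment of 2.89 at percentile 18.4. At 54607 bp and more from the nearest start site, the Casp8 peaks were just outside the 50 kb window, whereas the peaks 45 kb from Bcl2l11 and from Bcl2 were just inside it. With predicted transcripts added, no peak was assigned to Casp8 in any list.

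Cflar, the neighbour of Casp8 on chromosome 1, had its closest peak 126557 bp away in adult, 161365 bp in aged control and 129978 bp in aged treated. For Xiap, on chromosome X, the closest peak of any list was 5927362 bp away. A region without a peak is one that did not pass the peak caller in that pool, and weaker binding there cannot be judged from the lists.

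Gadd45b had 6 peaks in adult and 6 in aged control, the most of the 9 genes, and 4 in aged treated, as many as Mcl1. With only peaks of −log10 q of at least 10 it had 4, 2 and 4, beside 3 for Mcl1 in each list, and with the strongest 4169 peaks of each list by fold enrichment it had 3, 6 and 3. Few genes had so many: 65 protein-coding genes, Gadd45b included, had at least 6 in adult, 10 had at least 6 in aged control, and 127 had at least 4 in aged treated. The gene lies on the plus strand of chromosome 10, from 80930091 to 80932204. Its promoter carried p65 in every condition, but the peaks were placed differently.

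In adult, 1 promoter peak lay upstream, from 80929398 to 80929951, at a fold enrichment of 3.01, while 1 lay in the intron, from 80930531 to 80930883, at 3.92. In aged control, 1 lay farther upstream, from 80928672 to 80929025, with 3.04, and 1 over the start site, from 80930043 to 80930443, with 2.97. None of these adult peaks overlapped one of aged control, and the gaps between them were 87 to 372 bp. In aged treated, 1 peak of 2114 bp, from 80928701 to 80930814, covered the whole stretch with a fold enrichment of 3.14.

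Each of the 4 narrow promoter peaks of Gadd45b held 1 of the 4 decamers shown above, and each summit was within 41 bp of its decamer. Relative to the start site, the decamers were at −1214 and +89 bp in aged control and at −429 and +555 bp in adult. The broad aged treated peak held all 4, with its summit 86 bp from the one at −429. The reads behind these peaks were not analysed here, so that the signal between them is not known.

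The downstream Gadd45b sites held no NF-κB decamer within 100 bp of the summits. At 7.8 kb downstream, the fold enrichment was 5.35 in adult, 3.36 in aged control and 3.46 in aged treated, at percentiles 79.8, 33.4 and 42.6. Adult was the highest here. At 9.8 kb downstream, it was 3.49, 2.52 and 4.01, at percentiles 46.0, 3.60 and 59.1, so that aged treated was the highest and aged control was near the bottom of its list.

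A site 10.7 kb downstream of Gadd45b was weak, with fold enrichments of 2.79 in adult and 2.60 in aged control, and had no peak in aged treated. The most distant site lay 31.3 kb downstream, inside an intron of Gng7, which encodes a G-protein γ subunit. It was occupied in all conditions, with fold enrichments of 4.99, 4.12 and 4.88 at percentiles 76.6, 58.9 and 73.9.

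Ier3, an early response gene whose product modulates NF-κB and MAP kinase signals, lies on the plus strand of chromosome 17, from 35821713 to 35822911. It had the same pair of sites in every condition. The promoter peak had a fold enrichment of 3.71 in adult, 3.69 in aged control and 3.14 in aged treated, at percentiles 53.9, 45.8 and 30.4. Adult and aged control were nearly level, and aged treated was the lowest, as at the start site of Mcl1.

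The decamer shown for the Ier3 promoter was 87 bp upstream of the start site, and 4, 61 and 32 bp from the summits of adult, aged control and aged treated. The upstream Ier3 site, 8.4 kb before the start, had fold enrichments of 3.56, 2.80 and 2.90, at percentiles 48.9, 10.9 and 19.2, and held 1 further decamer. There adult was higher than both aged conditions.

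**Figure D2:**
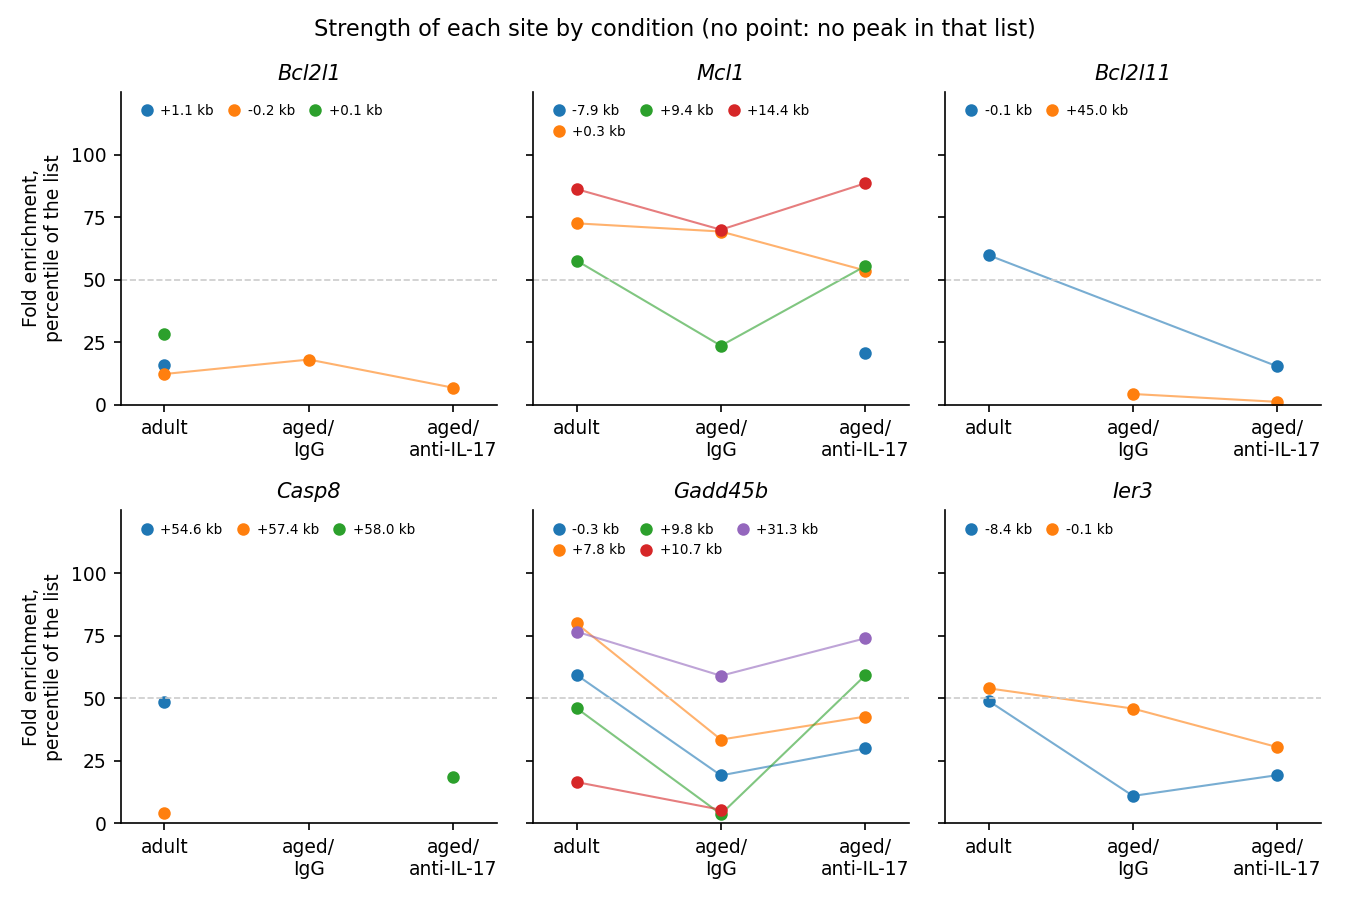
Percentile of fold enrichment within its list for each site of the 6 genes with peaks, in adult, aged control and aged treated. Lines join the peaks of 1 site, the legend gives its distance from the start site in kb, a missing point means no peak in that list, and the dashed line is the median of the list. The Mcl1 sites at 0.3 and 14.4 kb and the Gadd45b site at 31.3 kb stay above the median in every condition, while the Bcl2l1 sites stay below it.

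Across the shared sites, most values were lower in aged control than in adult. Of the 11 sites called in both adult and aged control, 10 had a lower percentile in aged control, with a median difference of −17.6 percentile points. The Gadd45b promoter is 1 of these sites, joined by the broad peak, with the stronger peak of each list as its value. Over all adult peaks shared with that list, 81.6% were lower and the median difference was −13.8, close to the values at these genes. Their median ratio of fold enrichment, aged control over adult, was 0.815, and that of all shared peaks was 0.813. Fold enrichment itself was lower in aged control at 10 of the 11 sites. The lists compared here and below were of unequal length, and percentiles depend on that length.

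Between aged control and aged treated, 11 sites were shared, and 7 of them had the higher percentile in aged treated. The median difference was 9.20 percentile points, beside 6.42 for all shared peaks, whereas the median ratio of fold enrichment was 1.03, beside 1.10 for all. The 4 sites that were lower were those at the start sites of Mcl1, Bcl2l1 and Ier3 and the distal site of Bcl2l11, and 31.4% of all shared peaks were lower. Between adult and aged treated, 9 of 11 shared sites were lower in aged treated, beside 67.2% of all. The median difference was −18.9 percentile points at these genes and −5.93 over all shared peaks, in lists of unequal length, and the median ratio of fold enrichment was 0.846, beside 0.902. These gaps were not tested. The comparisons share lists and are not independent of each other.

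Of the 17 adult peaks at these genes, 10 overlapped a peak of aged control, by at least 1 bp, and 12 overlapped one of aged treated. Over all adult peaks the shares were 45.5% and 60.4%. Of the 13 aged control peaks, 10 overlapped an adult peak and 12 an aged treated peak, with shares over the list of 93.3% and 86.6%. The 3 not found in adult were both Gadd45b promoter peaks and the distal Bcl2l11 peak. Of the 14 aged treated peaks, 11 overlapped an adult peak and 11 an aged control peak, beside 85.6% and 59.9%.

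Absence from aged control went with weakness in adult over the whole list. Counting deciles from the weakest, 70.7% of adult peaks in decile 5 were absent, 25.8% of those in decile 8 and 6.57% of those in decile 9. The 3 adult peaks of these genes in decile 8 (the start site of Mcl1 and the Gadd45b sites at 7.8 and 31.3 kb) and the 1 in decile 9 (Mcl1 at 14.4 kb) were all called in aged control. The 7 adult peaks without a counterpart there were all in the lower 6 deciles, and the strongest was the Bcl2l11 start site.

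**Figure D3:**
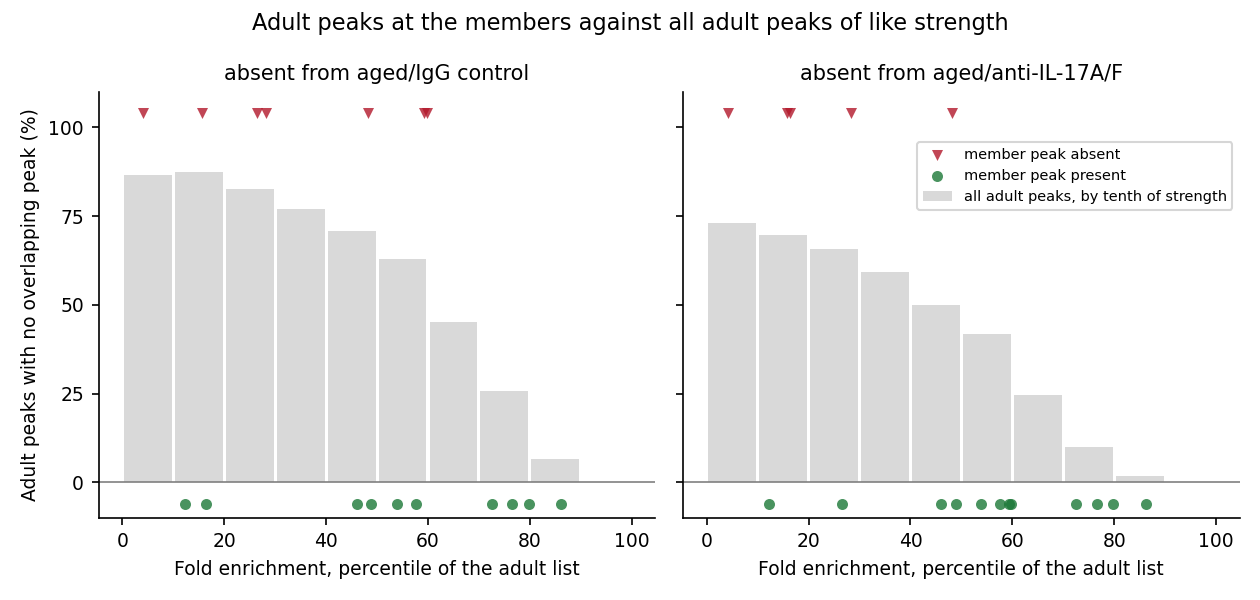
Share of all adult peaks with no overlapping peak in aged control (left) or aged treated (right), in %, by decile of fold enrichment in the adult list (grey bars). Triangles above mark the peaks of the 9 genes that were absent, and circles below those that were present, at their own percentile. The 7 and 5 absent peaks lie at or below percentile 59.8.

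Most of the peaks at these genes had no NF-κB decamer at the summit. With the whole match required to lie within 100 bp of the summit, on either strand, a match was present in 6 of 17 adult peaks, beside 28.5% of all adult peaks (95% Wilson interval 27.5% to 29.4%, counting error only). In aged control it was present in 4 of 13, beside 37.8% (36.3% to 39.2%). In aged treated it was present in 2 of 14, beside 34.9% (33.7% to 36.1%). Searched over the whole peak, the counts were 8, 6 and 6, beside 34.9%, 44.7% and 41.9% of all peaks.

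The 6 adult peaks with a match at the summit were those at Bcl2l1, Bcl2l11, Casp8, the Gadd45b promoter and the Ier3 promoter. The AP-1 motif TGANTCA was counted separately on both strands, and its matches may overlap a decamer in part. It was present within 100 bp of the summit in 4 of 17, 3 of 13 and 4 of 14 peaks. Over the lists it was present in 13.2%, 14.1% and 14.4%. In RefSeq promoters, from 250 bases before to 50 after the start, the decamer was found in 2 of 14 promoters of these genes, 1 of Bcl2l1 and that of Ier3, beside 4.51% of 32851 promoters. No match in such a window says only that these letters are not in it.

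Further peaks lay within 50 kb of these genes but nearer to another start site. Counting them, 6 of the 9 genes had a peak within 50 kb in adult, 5 in aged control and 5 in aged treated, beside 43.4%, 27.5% and 35.0% of all protein-coding genes. With the strongest 4169 peaks of each list by fold enrichment, the counts were 4, 5 and 3, and aged control, whose list was not shortened, had the most. No background at that length is given here. The strongest of the further peaks was 32790 bp downstream of the Ier3 start in adult, inside Mdc1, and was assigned to Nrm. Its fold enrichment was 7.50 in adult, 5.94 in aged control and 8.33 in aged treated, at percentiles 91.3, 84.7 and 94.0, and it held an NF-κB decamer. It was stronger than both Ier3 sites in every condition.

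A second Ier3 neighbour, at the start site of the DNA damage gene Mdc1, had fold enrichments of 4.85, 4.43 and 6.17. Ppp1r18 had weaker peaks in adult and aged treated, and Tubb5 in aged treated. Near Gadd45b, a site assigned to Tmprss9 was called in adult, at 5.56, and aged treated, at 4.02, with no peak in aged control, and held 2 NF-κB decamers. The start site of Timm13, a mitochondrial import gene, had 5.40, 3.47 and 3.54. Near Mcl1, a site assigned to Adamtsl4 had 3.21 in adult and 2.52 in aged control.

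Set against the wider cell death machinery, p65 peaks were often assigned to stress response genes. A list of 52 genes in 7 roles, which holds the 9 genes, had an assigned peak at 26 genes in adult, 21 in aged control and 23 in aged treated. Without the 9 genes, the counts were 20, 16 and 17 of 43, or 46.5%, 37.2% and 39.5%, beside the 23.1%, 12.9% and 17.4% of all protein-coding genes. In all 3 lists 18 of the 52 genes had a peak, and 24 had none in any.

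Of 8 stress response genes, 7 had a peak in adult, 8 in aged control and 7 in aged treated. These were assignments to the nearest start site at any distance, some of them beyond 50 kb. Of 8 prosurvival BCL-2 genes, Mcl1 and Bcl2l1 had one in each list, and this share was near that of all protein-coding genes in adult and above it in both aged lists. The share rests on these few genes, and the peaks of Bcl2l1 were weak. Of 3 effectors that open the mitochondrial membrane, Bok had one, and Bax and Bak1 had none.

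Of 8 BH3-only genes, 5 had a peak in adult and 3 in each aged list, the adult-only genes being Pmaip1 (NOXA) and Bmf. Their strongest peaks had fold enrichments of 2.69, at percentile 12.3, and 5.71, at percentile 82.6. Of all adult peaks in the same deciles, 87.6% and 6.57% were absent from aged control. Of 10 death receptor and adaptor genes, 5 had one in adult, 3 in aged control and 5 in aged treated. The receptor genes Tnfrsf10b and Tnfrsf1a were those without one in aged control. Of 7 inhibitors of apoptosis and their antagonists, 4, 4 and 3 had one. In the whole list, 7 of 52 genes had a peak in adult and not in aged control, beside 10.8% of all protein-coding genes. The reverse held for 2, Htra2 and Mdm2, beside 0.6%. These shares rest on unlike numbers of genes with an adult peak. Of the 26 list genes with an adult peak, 7 had none in aged control. Of all 4843 protein-coding genes with an adult peak, 2261 had none there.

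**Figure D4:**
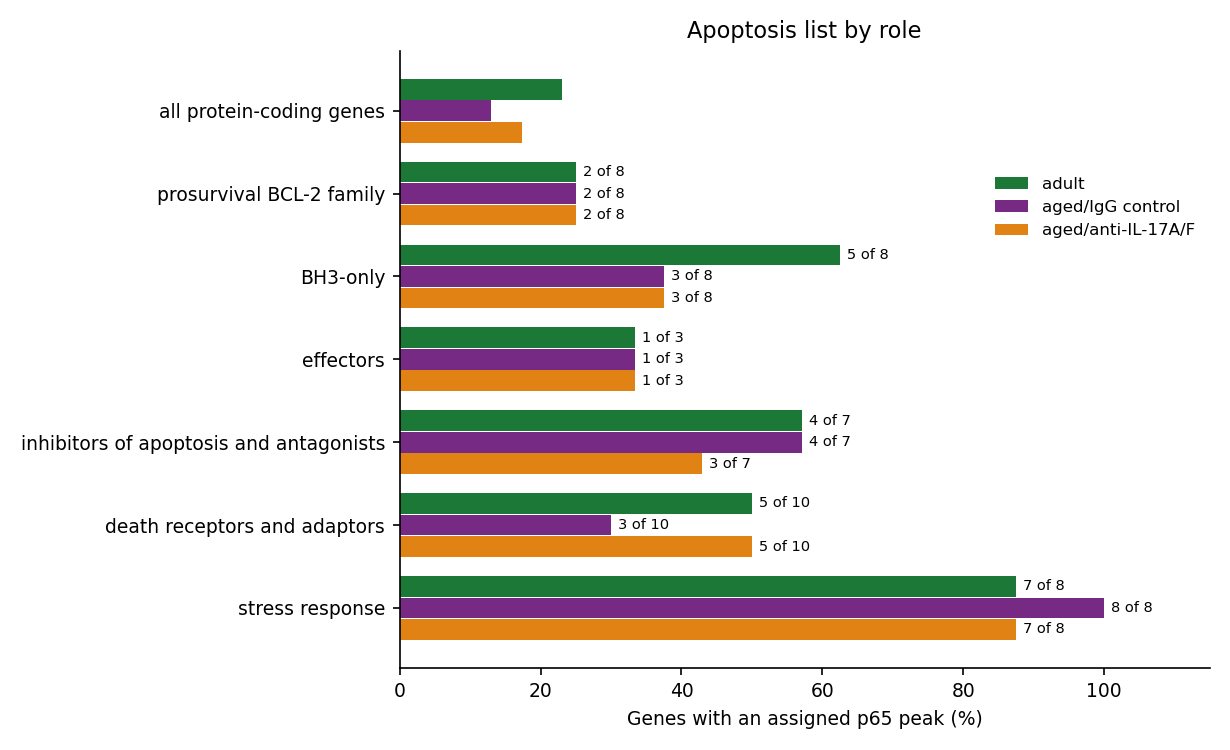
Share of genes with an assigned p65 peak, in %, for 6 of the 7 roles of the cell death list and for all protein-coding genes, in adult, aged control and aged treated. Numbers beside the bars give the genes with a peak of those in the role. The stress response bars are the longest, at 7 or 8 of 8.

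The strongest peaks of the machinery lay outside the 9 genes. Bbc3, which encodes the BH3-only protein PUMA, had a strongest peak of 15.0 in adult, 10.7 in aged control and 12.7 in aged treated. Bok had 12.7, 11.1 and 13.6, and Trp53, the gene of p53, had 11.8, 8.94 and 12.2. For each of these the percentile was at least 95.7 in every list, higher than that of any peak of the 9 genes.

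Birc3, which encodes the NF-κB target cIAP2, had 13.2, 6.32 and 14.3, at percentiles 98.6, 86.8 and 99.4 and was lowest in aged control. Birc5, the gene of survivin, had 9.74, 10.8 and 10.8. The death receptor adaptor Fadd had 7.97, 6.38 and 5.47, and Tnfaip8 had 9.02, 6.61 and 8.50. The strongest Mcl1 peak, at 6.34, 4.69 and 6.72, was below those of Birc3 in each list.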

How the data were processed

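p65 ChIP–seq peak lists of 3 conditions were used, of 6 samples. The 3 inputs were not analysed here. The reads had been trimmed by the authors with Trimmomatic 0.36, aligned to mm10, deduplicated, merged over 4 mice per condition and reduced to equal read numbers, and MACS2 then called the peaks (threshold, q of 0.01). Whether inputs entered peak calling is not given in the sources used here. The deposited columns hold a score, a fold enrichment (the ratio of pileup to local background, as the authors' caller wrote it), the −log10 of a p-value and the −log10 of a q-value. Reads per peak are not in these lists, so the depth behind a peak is unknown. Pooling removes the spread between mice, and a site near the threshold can be called in one list and missed in another.

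Peaks were assigned from their midpoint to the nearest of 31647 start sites of curated RefSeq transcripts (GRCm38.p6, 26180 genes). Overlap was at least 1 bp. Motifs were searched on both strands with Python 3.11.15 and pysam 0.24.0, and overlaps were checked with bedtools 2.31.1 on simulated data. The 9 genes and the list of 52 genes were chosen with earlier results of these data known. The caspase and apoptosome role is in the totals of that list and is not reported on its own here. Named genes were the 9 genes, list genes with a peak in the strongest decile of at least 1 list, and genes nearest to other peaks within 50 kb; other list genes are named where they make up a count of 5 or fewer. Alternatives were stricter q values, equal list lengths, summits, other annotations, windows and overlaps.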

Additional observations from a re-analysis of the deposited data

How the results depend on the processing

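No paired analysis was possible because each condition has 1 list from pooled mice, and for the same reason no replicate could be left out. Of 156 alternative values for 21 counts, 124 stayed within 1.5 times the value given. Some of these could not move, since equal list lengths left the aged control list, and so its own genes, peaks and motifs, unchanged. With only peaks of −log10 q of at least 10, assigned peaks numbered 11, 6 and 8 in adult, aged control (aged mice given control IgG) and aged treated (given anti-IL-17A/F). Genes with an assigned peak, and with one within 50 kb, then numbered 3 in both aged control and aged treated, motif-bearing peaks 1 in aged control, and shared peaks 6 for adult in aged control, aged control in adult and in aged treated, and aged treated in aged control. With the strongest 4169 peaks by fold enrichment, assigned peaks were 8 in adult and 6 in aged treated, genes in aged treated were 2 assigned and 3 within 50 kb, and motif-bearing peaks were 3 in adult and 0 in aged treated. Shared peaks were then 6 for adult in aged control, 5 in aged treated, 6 for aged control in both others, and 5 and 6 for aged treated in adult and aged control. Ordered by q instead, assigned peaks were 9 in adult and 8 in aged treated, and genes in aged treated were 3 by either rule. With motifs counted within 50 bp, peaks with a match were 2 in aged control and 1 in aged treated, within 200 bp they were 5 in aged treated, and over the whole peak 6. These settings kept fewer peaks or searched a narrower or wider stretch, and why the lists shifted unequally was not tested. For the peaks of single genes, 35 of 216 alternative values differed by more than 1.5 times. Bcl2, Cflar and Xiap had no peak to lose, so their counts could not move under stricter thresholds or equal list lengths. With predicted transcripts added, the genes with an assigned peak were 5, 4 and 5. The lists hold only peaks past the threshold, so that weaker binding cannot be seen.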
